A study of Mus musculus with 4 samples.

Results

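Heat shock chaperones were followed across 4 arrays of mouse epididymal fat. The set is given by name and has 10 genes: Hspa1a, Hspa1b, Hspa8, Hspa4l, Hsp90aa1, Hsph1, Hspb1, Dnajb1, Bag3 and Hspd1. A gene was represented by the probe set annotated to its symbol, or by the one with the highest mean over the arrays where several carried that symbol. This gave 9 of the 10 genes, each with 1 probe set, out of 19505 genes in all. Hspa8, the constitutive HSP70, is not analysed here because no probe set carried its symbol in the annotation used.

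All RNA came from epididymal adipose tissue, a visceral depot, of male mice. The groups were vehicle (DMSO) with sham surgery (Veh-Sham), vehicle with synergist ablation (Veh-SA), GW4869 with sham surgery (GW-Sham) and GW4869 with synergist ablation (GW-SA). Synergist ablation removes the muscles that share a muscle's work and so overloads it mechanically. GW4869 inhibits the release of extracellular vesicles. The series title concerns vesicles from overloaded muscle and lipolysis in fat, so the layout asks how fat differs after overload and whether that difference is seen when vesicle release is blocked. Each group has 1 array, and neither the number of mice behind an array nor their strain or age is given in the sources used here. There is therefore no replicate error, no test was run, and each value describes these 4 arrays only.

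Heat shock proteins are chaperones: they bind unfolded protein, keep it from aggregating and help it fold or be degraded. In resting cells the transcription factor HSF1 is held inactive. When unfolded protein accumulates, HSF1 trimerises and binds heat shock elements, repeats of the unit NGAAN in alternating orientation, in front of chaperone genes. The inducible HSP70 genes Hspa1a and Hspa1b are the classical targets. HSP70 works with J-domain proteins such as Dnajb1, which deliver substrate, and with exchange factors such as Hsph1 and Bag3, which release nucleotide. Hsp90aa1 is the inducible cytosolic HSP90, Hspb1 a small heat shock protein that holds unfolded protein without ATP, and Hspd1 the chaperonin of mitochondria. Hspa4l is an HSP110 relative that is abundant in testis.

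The sequences in front of these genes are shown because heat shock elements are usually found there. RefSeq promoter windows (GRCm38.p6, 250 bases before and 50 after a start site) were present for 8 of the 10 genes, in 11 windows, and none was matched for Hspa8 and Hsp90aa1. Shown are Hspa1a, Hspa1b and Hspb1, the chaperones with the largest step to GW-SA, and both genes with the longest match, of which Hspd1 has another pattern over the arrays. The motifs searched on both strands were GAANNTTC and TTCNNGAA, each 2 units long, and a motif of 3 units, GAANNTTC followed directly by NNGAA, which overlaps both of the shorter ones. Capitals mark matches to either 2-unit motif. The 250 bases before the start site of Hspa1a (chr17:34972157-34972406, minus strand), Hspa1b (chr17:34959239-34959488, minus strand) and Hspb1 (chr5:135887669-135887918, plus strand) follow, with 30 bases around the 3-unit matches of Hsph1 (chr5:149636279-149636308, minus strand) and Hspd1 (chr1:55088055-55088084, minus strand).
Hspa1a: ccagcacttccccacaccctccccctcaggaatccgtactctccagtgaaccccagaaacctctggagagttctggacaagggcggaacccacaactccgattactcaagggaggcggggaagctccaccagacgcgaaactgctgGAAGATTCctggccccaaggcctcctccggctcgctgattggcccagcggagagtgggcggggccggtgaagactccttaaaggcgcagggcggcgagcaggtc
Hspa1b: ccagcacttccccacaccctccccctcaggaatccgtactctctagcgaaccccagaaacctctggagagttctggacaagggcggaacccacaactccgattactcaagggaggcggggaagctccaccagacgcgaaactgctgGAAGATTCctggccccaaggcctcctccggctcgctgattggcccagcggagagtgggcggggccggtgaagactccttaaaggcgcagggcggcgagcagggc
Hspb1: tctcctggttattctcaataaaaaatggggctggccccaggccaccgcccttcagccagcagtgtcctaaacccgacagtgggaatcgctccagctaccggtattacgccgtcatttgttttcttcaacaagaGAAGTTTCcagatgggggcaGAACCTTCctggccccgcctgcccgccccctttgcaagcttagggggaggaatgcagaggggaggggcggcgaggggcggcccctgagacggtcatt
Hsph1: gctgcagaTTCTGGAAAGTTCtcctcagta
Hspd1: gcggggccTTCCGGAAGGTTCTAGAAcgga

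Hspa1a and Hspa1b are identical at 247 of these 250 bases, and both carry GAAGATTC at positions -104 to -97, counted back from the base before the start site. Hspb1 has matches at -117 to -110 and at -97 to -90. The 3-unit match of Hsph1 lies after its annotated start sites, at 16 to 28 in the window shown, and a 2-unit match lies at -54 to -47 of that window. Hspd1 has overlapping 3-unit matches from -144 to -127 of its downstream start site and none in the window of its upstream start site. Bag3 has GAAGTTTC at 43 to 50, after the start site. The windows of Hspa4l and Dnajb1 hold none of these letters, which says nothing about sites elsewhere. Among 32851 promoter windows of the same length, 15.1% hold at least 1 of the 2-unit motifs and 0.603% the 3-unit motif.

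On the deposited log2 scale, 7 of the 9 chaperones had their highest value on the GW-SA array, and the other 2, Hspa4l and Dnajb1, on the Veh-Sham array. The plot of values by array shows these patterns. Among the 11703 genes above the floor, the 40th percentile of gene means at log2 4.67, 26.7% were highest on GW-SA and 19.8% on Veh-Sham. All 9 chaperones lay above that floor on every array.

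**Figure D1:**
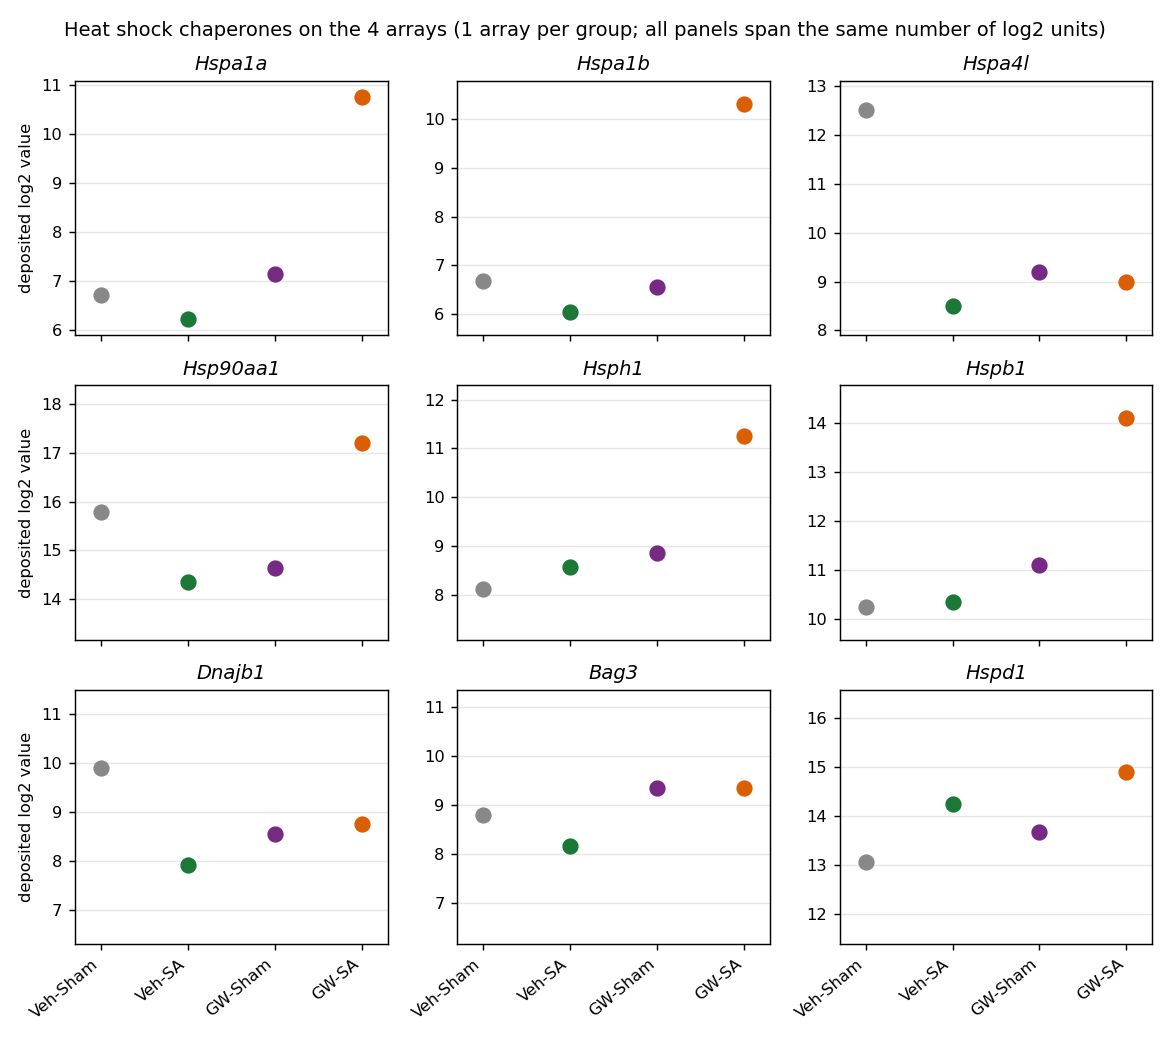
Deposited log2 value (y axis) of each of the 9 measured chaperones on the 4 arrays (x axis), 1 point per array and the same y span in all panels. Hspa1a, Hspa1b, Hsph1, Hspb1 and Hsp90aa1 stand highest on GW-SA, Hspa4l and Dnajb1 on Veh-Sham, Bag3 is level on both GW4869 arrays, and Hspd1 is higher on each overload array than on its sham array.

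Libraries that stand apart must be named first, since 3 of the 4 arrays carry reproductive tract transcripts. For GW-Sham this rests on the 5 distal tract genes given below, a list that was chosen on these arrays. The mature adipocyte list, 13 of 14 measured genes, had medians of 16.63, 16.98, 17.14 and 16.89 on Veh-Sham, Veh-SA, GW-Sham and GW-SA, so the tissue label holds on each. Sperm and testis genes (12 of 12 measured) had medians of 14.98, 3.90, 3.05 and 4.38 in the same order, and 12 of 12 were highest on Veh-Sham. Summed over the list as the log2 of added linear values, they stood at 19.51 on Veh-Sham and between 6.99 and 9.14 on the others. On GW-SA 10 of the 12 were at least 1.5-fold above GW-Sham, beside 13.4% of the genes above the floor. Their highest GW-SA reading, 7.10, lay under the 95th percentile of the negative control rows on that array, 9.27. All 12 were thus within background on GW-SA, and 7 of them lay under the floor there and 11 on GW-Sham. Epididymal epithelium genes (12 of 14 measured) had medians of 3.99, 3.56, 3.62 and 14.19, and their summed levels were 17.10, 7.34, 7.38 and 20.12. On GW-Sham 12 of the 12 lay under the floor, on Veh-SA 11, on Veh-Sham 7 and on GW-SA 1, Defb38. A set of 5 distal tract genes that an earlier examination chose on these arrays had medians of 12.05 and 12.57 on Veh-Sham and GW-Sham and of 3.35 and 4.48 on Veh-SA and GW-SA. The bulk samples do not tell fewer cells of a type from less RNA per cell.

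The inducible HSP70 genes stood apart on a single array. Hspa1a had log2 values of 6.71 on Veh-Sham, 6.21 on Veh-SA, 7.13 on GW-Sham and 10.77 on GW-SA. Hspa1b had 6.69, 6.04, 6.55 and 10.31 in the same order. For both genes GW-SA was high and the other 3 arrays lay close together, within 0.92 for Hspa1a and 0.65 for Hspa1b. The step from the highest of those to GW-SA was 3.63 for Hspa1a and 3.62 for Hspa1b. The coding sequences of these genes are nearly the same, so their probe sets may share signal and are not independent readings.

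The low HSP70 readings are near background. The 95th percentile of the 23 antigenomic background rows ran from 6.34 to 6.40 over the arrays, and that of 5222 negative control rows from 9.01 to 9.27. Both HSP70 genes lay under the first on Veh-SA and under the second on Veh-Sham, Veh-SA and GW-Sham. With every reading raised to the negative control percentile of its array, the overload difference under GW4869 would be 1.59 for Hspa1a and 1.13 for Hspa1b, compared with 3.63 and 3.76 from the values as deposited. Each of these differences thus sets 1 reading above the negative control percentile against 1 within it.

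Hspb1 and Hsph1 had the same shape. Hspb1, the small heat shock protein, had 10.25 on Veh-Sham, 10.35 on Veh-SA, 11.10 on GW-Sham and 14.11 on GW-SA, all above both background percentiles. Hsph1, an HSP110 exchange factor for HSP70, had 8.13, 8.58, 8.85 and 11.25. In both genes GW-SA was highest by a wide step, 3.01 for Hspb1 and 2.40 for Hsph1, followed by GW-Sham, Veh-SA and Veh-Sham. Hsph1 was under the negative control percentile on the 3 lower arrays, and raising those readings leaves an overload difference of 2.07 under GW4869.

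Hsp90aa1 combined a high GW-SA value with a second elevation. It had 15.78 on Veh-Sham, 14.36 on Veh-SA, 14.64 on GW-Sham and 17.19 on GW-SA. The GW-SA value was 1.41 above Veh-Sham, which in turn was 1.42 above Veh-SA. Veh-SA and GW-Sham, the arrays lowest in sperm and epididymal genes, differed by 0.28.

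Hspa4l and Dnajb1 followed the other pattern. Hspa4l had 12.51 on Veh-Sham, 8.50 on Veh-SA, 9.20 on GW-Sham and 8.99 on GW-SA. Veh-Sham alone was high, 3.31 above the next array, and the other 3 lay within 0.70. Dnajb1, the J-domain partner of inducible HSP70, had 9.89, 7.90, 8.55 and 8.74, with Veh-Sham 1.15 above GW-SA. Its readings on Veh-SA, GW-Sham and GW-SA were under the negative control percentile, and with them raised to it the overload difference under vehicle would be -0.70. Hspa4l was under it on 2 arrays and Bag3 on 2.

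Bag3 and Hspd1 had the narrowest ranges, 1.18 and 1.83. Bag3, which links HSP70 to small heat shock proteins and to autophagy, had 8.79 on Veh-Sham, 8.17 on Veh-SA, 9.34 on GW-Sham and 9.35 on GW-SA. Its values on both GW4869 arrays differed by 0.01, so it lacked the GW-SA step of the HSP70 genes it works with. Hspd1 had 13.07, 14.24, 13.68 and 14.90, with overload above sham under each injection.

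Overload against sham under vehicle gave mixed and mostly negative differences. The values were -4.01 for Hspa4l, -1.98 for Dnajb1, -1.42 for Hsp90aa1, -0.65 for Hspa1b, -0.62 for Bag3 and -0.50 for Hspa1a. They were 0.10 for Hspb1 (-0.25 with arrays centred on adipocyte genes), 0.45 for Hsph1 and 1.17 for Hspd1. At a threshold of 1.5-fold, 5 of 9 were lower and 1 was higher, beside 16.9% lower and 30.2% higher among the 11703 genes above the floor. The median was -0.62 for the chaperones and 0.26 for those genes. The count of lower chaperones was 3 after all-gene centring, after quantile normalization and at a 2-fold threshold, namely Hspa4l, Dnajb1 and Hsp90aa1. All-gene centring also put 2 rather than 1 higher. With readings raised to the negative control percentile the same 3 were lower, and the median turned to 0.18. Veh-Sham is the array with sperm transcripts, and their part in these differences was not tested.

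Overload against sham under GW4869 gave differences of 3.76 for Hspa1b, 3.63 for Hspa1a, 3.01 for Hspb1, 2.56 for Hsp90aa1, 2.40 for Hsph1 and 1.22 for Hspd1. Dnajb1 had 0.19, Bag3 0.01 (-0.10 with all-gene centring) and Hspa4l -0.21 (0.04 with adipocyte centring). Thus 6 of 9 were at least 1.5-fold higher and 0 lower, beside 13.4% and 15.3% of the genes above the floor. The median was 2.40, and -0.04 over those genes. In all, 93 of the 11703 genes had a difference at least as large as Hspa1b's, and 192 one as large as Hsph1's. The same 6 remained past 2-fold, and past 1.5-fold with readings raised to the negative control percentile, where the median was 1.22. GW-SA carries epididymal transcripts, 12 of 12 of them at least 1.5-fold above GW-Sham, and their part was not tested.

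**Figure D2:**
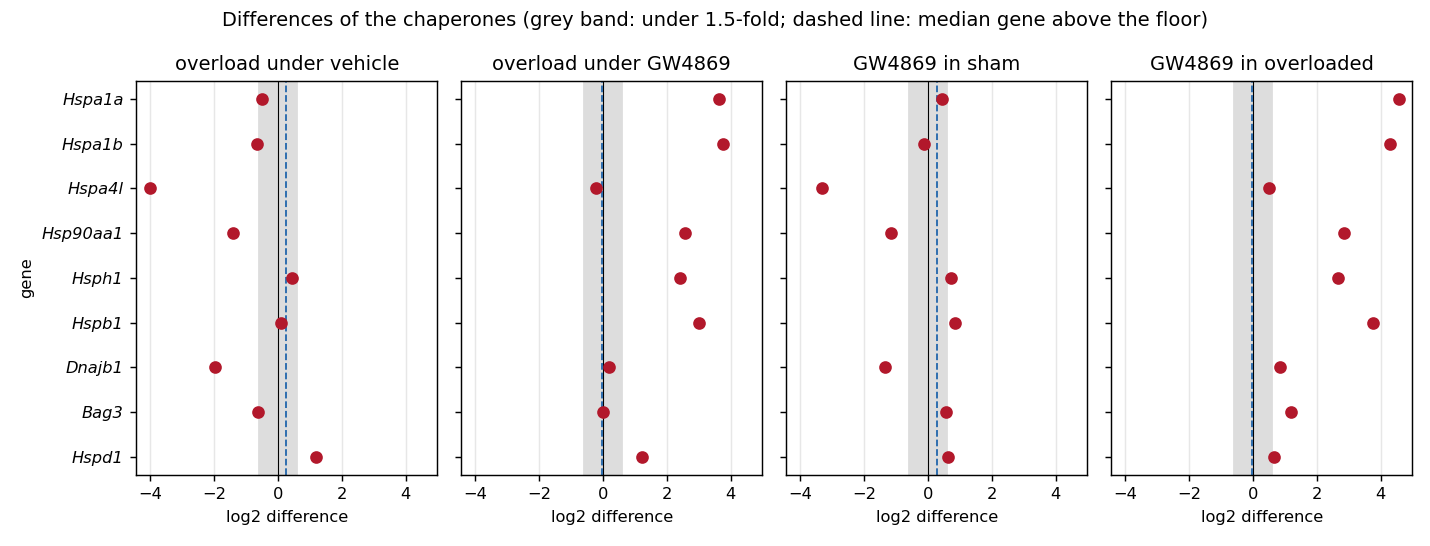
Log2 differences (x axis) of the 9 chaperones (y axis) in 4 comparisons, 1 point per gene, with the band under 1.5-fold in grey and the median gene above the floor as a dashed line. Points lie left of the band mainly in the 2 comparisons that subtract Veh-Sham, and the largest positive values, up to 4.56, lie in the 2 that contain GW-SA.

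GW4869 against vehicle in sham mice gave differences between -3.31 (Hspa4l) and 0.85 (Hspb1). Here 3 of 9 were at least 1.5-fold higher (Hspb1 0.85, Hsph1 0.73, Hspd1 0.61) and 3 lower (Hspa4l, Dnajb1 -1.34, Hsp90aa1 -1.15), beside 28.9% and 14.4% of the genes above the floor. The differences of Hspa1a, 0.42, and Hspa1b, -0.14, had no stable sign: they were -0.081 with adipocyte centring and 0.23 with all-gene centring, respectively. The median was 0.42, and -0.081 with adipocyte centring. The count of higher chaperones was 0 with adipocyte centring and at a 2-fold threshold, and 5 with all-gene centring. Both readings of Hsph1 lie within the negative controls, and its difference would be 0.17 with them raised, which leaves Hspb1 and Hspd1. In the same comparison 12 of 12 sperm and testis genes were lower and 9 of 9 macrophage genes higher, and their part was not tested.

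GW4869 against vehicle in overloaded mice gave positive differences for 9 of 9, from 0.49 (Hspa4l) to 4.56 (Hspa1a). In that comparison 8 of 9 were at least 1.5-fold higher and 0 lower, beside 18.4% and 18.8%, with a median of 2.67 against -0.04. Several of the Veh-SA readings lie within the negative controls. With readings raised to that percentile the differences would be 1.57 for Hspa1a, 1.12 for Hspa1b and 2.06 for Hsph1. Dnajb1, at 0.84, would have 0.08, Bag3, at 1.18, would have 0.16, and Hspa4l would have 0.08. This leaves 6 of 9 past 1.5-fold and a median of 1.12. The comparison does not contain Veh-Sham, but it shares GW-SA with overload under GW4869, so these counts are not separate evidence of a high GW-SA value.

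The contrast of the arrays with the lowest sperm and epididymal levels, GW-Sham against Veh-SA, contains neither Veh-Sham nor GW-SA but differs in both injection and surgery. It is not free of other tissue. Smooth muscle genes were at least 1.5-fold higher on GW-Sham in 9 of 10 (median 3.52) and mesothelial genes in 7 of 7 (1.19). Macrophage genes were so in 8 of 9 (1.06), beside 14.9% of the genes above the floor. Distal tract genes were so in 5 of 5 (8.34), but that list was chosen on these arrays, so its count is no separate support. The part of these tissues was not tested. The chaperone differences in this contrast ran from -0.56 (Hspd1) to 1.17 (Bag3), with a median of 0.65. Hspa1a had 0.92, Hspb1 0.75, Hspa4l 0.70, Dnajb1 0.65, Hspa1b 0.51, and Hsp90aa1 and Hsph1 0.28 each. This put 5 of 9 at least 1.5-fold higher and 0 lower, beside 14.9% and 11.1%. The count of higher chaperones was 3 with adipocyte centring and 1, Bag3, at 2-fold, and under each of the 3 scalings tried 1 was lower. With readings raised to the negative control percentile the median was -0.015 and 1 chaperone, Hspb1, was higher. Every difference of over 2 log2 units between 2 arrays seen in these chaperones thus involves GW-SA or Veh-Sham.

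The difference between the overload differences, GW4869 minus vehicle, was 4.41 for Hspa1b, 4.14 for Hspa1a, 3.98 for Hsp90aa1, 3.80 for Hspa4l, 2.91 for Hspb1, 2.18 for Dnajb1 and 1.94 for Hsph1. It was 0.63 for Bag3, but 0.05 with all-gene centring and -0.17 with readings raised to the negative control percentile. It was 0.04 for Hspd1 (-0.54 with all-gene centring), whose overload differences were 1.17 and 1.22. With readings raised in that way it would be 1.41 for Hspa1a, 0.95 for Hspa1b, 1.89 for Hsph1, 0.79 for Dnajb1 and 3.38 for Hspa4l. If overload and GW4869 had added on the log2 scale, Hspb1, whose readings all lie above the negative controls, would have stood at 11.20 on GW-SA, where 14.11 was read, and Hsp90aa1 at 13.21, where 17.19 was read. Hspa4l has its positive value with Veh-Sham as its only high array, and Hspa1a, Hspa1b and Hspb1 with GW-SA as theirs. Over the genes above the floor the median difference between the overload differences was -0.27. Of the 11703, 500 had a value at least as large as Hspa1b's and 1073 one as large as Hsph1's. The median was 1.14 for chaperonins other than Hspd1, the value of Cct7, which lay under the antigenomic percentile on every array. It was 0.77 for heat shock factors and regulators (0.69 over those above the floor) and 0.60 for HSP70 and HSP110 relatives (0.28). It was 0.43 for small heat shock proteins (0.22) and 0.33 for J-domain cochaperones (0.16). HSP90 and its cochaperones had -0.17, other HSP70 cochaperones -0.24, and testis-expressed relatives, Hspa4l among them, 4.24.

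Relatives of the chaperones that are expressed mainly in testis shared the pattern of Hspa4l. All 10 genes of that list, which includes Hspa4l, were highest on Veh-Sham, beside 19.8% of the genes above the floor. All 10 were at least 1.5-fold lower in overload under vehicle, beside 16.9%. Their median difference was -5.55, compared with -0.45 under GW4869. On Veh-Sham only Hspa4l, Dnajc5b, Hspa2 and Cct6b lay above the negative control percentile of 9.01, so the other readings of the list are within background even there. Dnajc5b, a J-domain protein of the testis, had 12.55 on Veh-Sham and 2.88, 3.33 and 2.90 on Veh-SA, GW-Sham and GW-SA. Hspa2, the HSP70 of spermatocytes, had 11.89, 6.23, 7.14 and 5.59, and Cct6b, a testis subunit of the cytosolic chaperonin, 9.55, 4.11, 4.63 and 3.56. On each of the arrays other than Veh-Sham 7 of the 10 lay under the floor, while Hspa4l stayed between 8.50 and 9.20.

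The HSP70 genes that lie side by side on chromosome 17 were highest on different arrays. Among protein-coding genes in RefSeq order Hspa1b, Hspa1a and Hspa1l are direct neighbours. Hspa1l, the member of this cluster expressed in spermatids, had 8.48 on Veh-Sham and 2.14, 2.49 and 2.07 on the others. Those lower readings lie under the floor and have no order, and the gene's mean is under the floor. The Veh-Sham reading is under the negative control percentile of that array, 9.01, so Hspa1l lies within the negative controls on every array. Hspa1a and Hspa1b had their only high value on GW-SA. Hspd1 and Hspe1, the mitochondrial chaperonin and its lid, are likewise neighbours on chromosome 1, and Hspe1 had 9.83, 10.38, 10.02 and 11.31, with overload differences of 0.55 and 1.29.

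**Figure D3:**
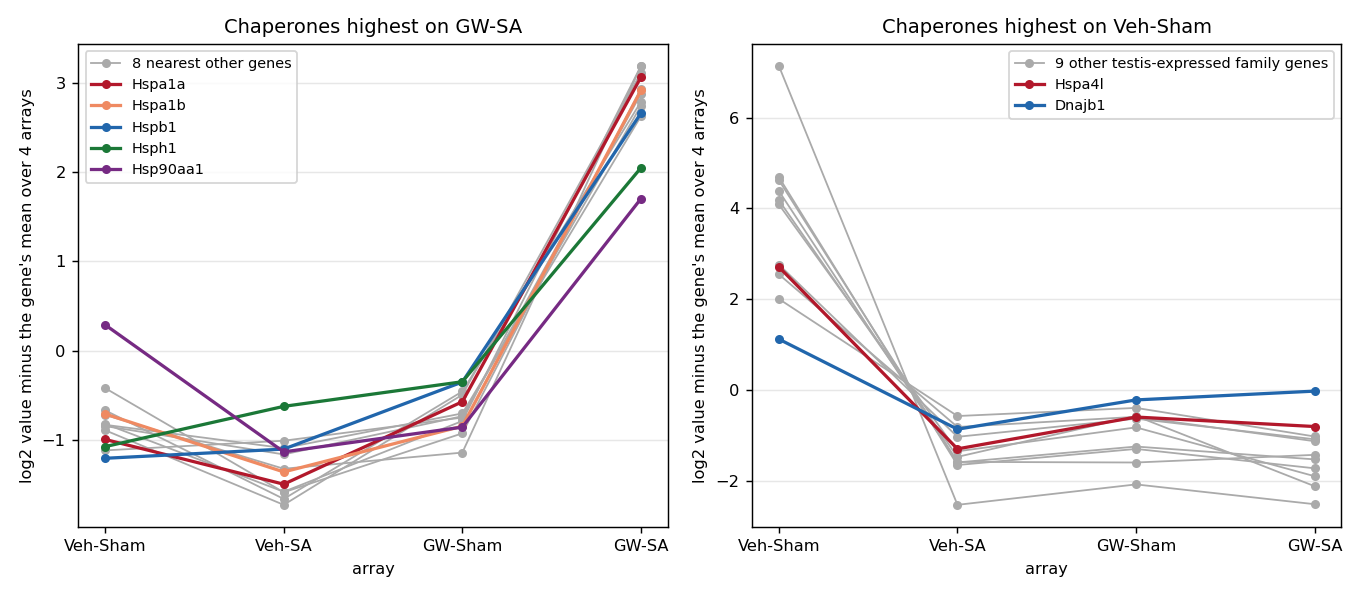
Log2 value minus the gene's own mean over the 4 arrays (y axis) on each array (x axis), with lines joining the points of 1 gene. On the left 5 chaperones and the 8 genes nearest to the HSP70 profile are highest on GW-SA, and on the right Hspa4l, Dnajb1 and 9 other testis-expressed family genes are highest on Veh-Sham.

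Genes with a profile most like the mean of Hspa1a and Hspa1b were sought by Euclidean distance between mean-centred values over the 4 arrays. Outside the chaperones the 8 nearest were Scnn1a (0.27), Defb45 (0.36), Slc1a1 (0.39), B4galnt1 (0.44), Dsp (0.49), Defb35 (0.50), Ptpn22 (0.51) and Sytl4 (0.51). Only Scnn1a, Defb45 and Defb35 lay above the negative control percentile on GW-SA, 9.27. On each other array all 8 lay under that array's percentile, so their profiles rest largely on readings within background. Scnn1a, a subunit of the epithelial sodium channel, had 5.91, 5.15, 5.94 and 9.92 on Veh-Sham, Veh-SA, GW-Sham and GW-SA. Defb45 and Defb35 are beta-defensins and Dsp is a protein of epithelial cell junctions. Slc1a1, B4galnt1, Ptpn22 and Sytl4 are not described here, so the list is not read as that of 1 cell type. The cell source of these genes was not tested. Among the chaperones Hspb1 was at a distance of 0.68, Hsph1 at 1.31, Hsp90aa1 at 1.75, Hspd1 at 2.70, Bag3 at 2.97, Dnajb1 at 3.68 and Hspa4l at 5.21. With only 4 arrays many genes are close by this measure, for example 32 within a distance of 1 of Hspa1a.

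Markers of other cells were set beside the high GW-SA values. Neutrophil markers had medians of 3.50, 3.53, 4.90 and 7.94 on Veh-Sham, Veh-SA, GW-Sham and GW-SA, with summed levels of 6.49, 7.41, 7.64 and 10.44. Cxcr2, Mmp8 and Camp were under the floor on all 4. The highest neutrophil reading on GW-SA, 8.72, lay under the negative control percentile of that array, 9.27, so every marker of this list was within background there. Immediate early genes, which respond within minutes to many stresses, had medians of 6.42, 6.70, 8.53 and 9.48. They were already higher on GW-Sham, with 7 of 10 at least 1.5-fold above Veh-SA, beside 14.9% of the genes above the floor. In overload under GW4869, 3 of 10 of them passed 1.5-fold upward and 2 downward (median 0.28), beside 13.4% and 15.3%. The higher ones were Junb at 2.29, Egr2 at 1.74 and Ier3 at 1.42. Junb lay under the negative control percentile on every array, and Egr2 and Ier3 lay above it on GW-SA only. Smooth muscle markers, whose cells are rich in small heat shock proteins, had medians of 11.89, 7.57, 11.98 and 9.45, highest on both sham arrays. On GW-SA 9 of 10 of them were at least 1.5-fold below GW-Sham, beside 15.3% of the genes above the floor. Against Veh-SA, 6 of 10 were higher on GW-SA and 0 lower (median 0.97), beside 18.4% and 18.8%. The mesothelial list split in overload under GW4869: Krt8 (3.99) and Krt18 (3.58), keratins shared with other simple epithelia, were higher, and Msln, Upk3b, Wt1 and Lrrn4 had -0.78, -1.59, -1.25 and -1.04, with a list median of -0.78. The part of these cell types in the chaperone values was not tested.

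Most of the wider chaperone network did not share the high GW-SA values. Counts at 1.5-fold are read beside 30.2% higher and 16.9% lower under vehicle and 13.4% and 15.3% under GW4869 among the genes above the floor. HSP70 and HSP110 relatives (10 measured) had a median overload difference of -0.18 under vehicle and -0.02 under GW4869, with 1 of 10 at least 1.5-fold higher under GW4869 and 2 lower. The higher one was Hspa5, the HSP70 of the endoplasmic reticulum, at 1.43, beside -1.36 under vehicle. Hspa9, the HSP70 of mitochondria, had 1.19 under vehicle and -0.05 under GW4869, and Hspa12a 1.14 and -1.37. HSP90 and its cochaperones (11 of 12 measured) had medians of 0.32 and 0.03, with 0 higher and 1 lower under GW4869. In this list Hsp90b1, the HSP90 of the endoplasmic reticulum, had -0.73 and 0.49, Fkbp4 had -1.23 and -0.17, Ptges3 -0.66 and 0.44, and Chordc1 0.81 and -0.64.

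J-domain cochaperones (16 of 18 measured) had medians of -0.38 and -0.20. Under vehicle 6 were lower and 1 higher, beside 16.9% and 30.2% of the genes above the floor, and 4 of the 6 are on the testis list. With all-gene centring 5 were lower and 4 higher, and the median turned to 0.09. Dnaja4, an HSP70 partner that responds to heat, had 10.51, 8.79, 9.13 and 10.44, thus differences of -1.72 and 1.31, which is the direction of Hsp90aa1. Dnaja3 of mitochondria had 1.37 and -0.36, and Dnajb13 -2.58 and -0.63. Exchange factors and other HSP70 cochaperones (9 of 10) had medians of -0.22 and 0.04, with 3 higher and 3 lower under vehicle and 1 higher and 2 lower under GW4869. Bag5 was at 12.39 on Veh-Sham and between 9.50 and 9.69 on the others. Bag4 had differences of 1.11 and 0.09, St13 1.03 and -0.40, and Hspb8 0.41 and -1.45.

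Small heat shock proteins other than Hspb1 were spread in both directions. Their medians were -0.77 and 0.28 over 8 measured genes, but -1.10 and -0.47 over the 4 that lay above the floor. Hspb6 had 12.65, 10.74, 13.12 and 10.39 on Veh-Sham, Veh-SA, GW-Sham and GW-SA, high on both sham arrays like the smooth muscle list. Hspb7 had 9.29 on Veh-Sham, 7.85 on Veh-SA and 10.79 on GW-SA, with an overload difference of 0.79 under GW4869, and Cryab had 12.29, 11.53, 12.27 and 12.78, both highest on GW-SA by less than 1 log2 unit. Chaperonins (9 of 10) had medians of -0.64 and 0.27, with 6 lower under vehicle and 3 higher under GW4869, beside 16.9% and 13.4% of the genes above the floor. With all-gene centring the counts were 2, Tcp1 and Cct6b, and 1, Hspe1. Tcp1, a subunit of the cytosolic chaperonin, had 13.28 on Veh-Sham and between 11.36 and 11.44 on the others. Cct7 had differences of -0.93 and 0.21, with every reading under the antigenomic percentile.

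Heat shock factors and regulators (4 of 5, Hsf1 not analysed here) had medians of -0.89 and -0.27. Hsf2 had 8.54, 7.74, 7.55 and 7.60 on Veh-Sham, Veh-SA, GW-Sham and GW-SA. Hsbp1, a small protein that binds HSF1, had 12.83, 11.86, 11.73 and 11.45, and Hsf4 had 5.10, 6.13, 6.25 and 5.98. Hsf4 lay under the antigenomic percentile on every array, and Hsf2 and Hsf5 under the negative control percentile. Of the 4 genes 0 passed 1.5-fold in overload under GW4869, the comparison with the high HSP70 values. Only Hsbp1 was read above background there, so the count says little about the factors themselves.

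**Figure D4:**
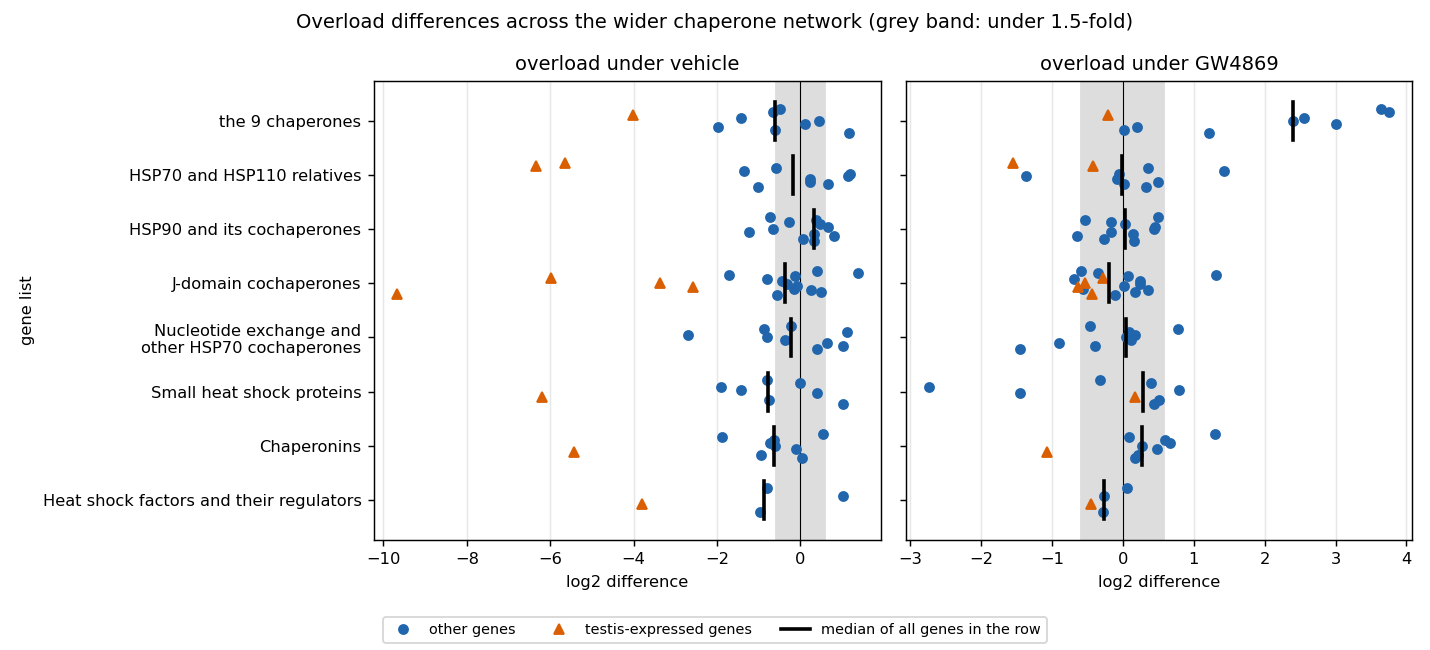
Log2 overload differences (x axis, scaled separately in each panel) under vehicle (left) and GW4869 (right) for the 9 chaperones and 7 fixed lists (y axis), 1 point per gene, triangles for testis-expressed genes and a black bar for the row's median. The chaperone median is 2.40 under GW4869, while the other medians lie between -0.27 and 0.28, the latter for small heat shock proteins, whose median is -0.47 above the floor; under vehicle the leftmost point, at -9.67, is a triangle, Dnajc5b.

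Genes with a 3-unit heat shock motif in a promoter window were counted in the same way. Of 60 such genes above the floor, which include Hsph1 and Hspd1, 6 stood at least 1.5-fold above and 10 below sham in overload under GW4869, with a median of -0.06. These are 10% and 16.7%, beside 13.4% and 15.3% of all genes above the floor. Under vehicle 17 of 60 were higher and 9 lower, or 28.3% and 15%, beside 30.2% and 16.9%, with a median of 0.19.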

How the data were processed

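Clariom S Mouse arrays were read, and the table the authors deposited holds log2 values for each probe set. Per the submitters' processing notes, RMA and Partek were used, and neither version nor settings are stated in the sources used here. The values reach 19.93, and the step that gives this range was not identified, so a log2 difference holds on the deposited scale only. Of 28846 rows, 19572 carry 1 gene symbol in the platform annotation, giving 19505 genes.

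Differences of log2 values between arrays were taken with Python 3.11.15, numpy 2.4.6 and pandas 2.3.3. The number of arrays, 1 per group, limits the precision, and genes past 1.5-fold were counted without a test. The counting step was run on simulated data with an assumed noise level. That run checks the code only and says nothing about the error of these arrays. The chaperones and the 19 gene lists were chosen with earlier results of these data known. Named were all chaperones, up to 4 genes above the floor with the largest overload differences in each list, of which some are shown, and the 8 genes nearest the HSP70 profile. Hspa1l, Cxcr2, Mmp8 and Camp were added after their values were seen. The alternatives were 3 scalings, averaging of probe sets, 2 treatments of low values and a 2-fold threshold; those for GW-Sham against Veh-SA, the scalings of the other lists and the raising of readings to the negative control percentile were chosen after seeing the data.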

Additional observations from a re-analysis of the deposited data

Results flagged for a closer look

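For 5 of the 9 chaperones the overload differences were of opposite sign under vehicle and GW4869. The difference was not tested because each group has 1 array. The medians of the genes above the floor were themselves of opposite sign, 0.26 and -0.04. The share of those genes with opposite signs was not counted, so this count has no background beside it. The change in the overload difference was 4.14 for Hspa1a, 4.41 for Hspa1b, 3.98 for Hsp90aa1, 2.18 for Dnajb1 and 0.63 for Bag3. For Bag3 the opposite sign rests on a GW4869 difference of 0.01, which was -0.10 with all-gene centring. The median GW4869 differences of the genes above the floor, 0.27 in sham and -0.04 in overloaded mice, were of opposite sign too. GW4869 differences of opposite sign in sham and overloaded mice were seen for Hspa1b (4.41), Hsp90aa1 (3.98), Dnajb1 (2.18) and Hspa4l (3.80), again untested. For Hspa1b it rests on a sham difference of -0.14, which was 0.23 with all-gene centring and 0.11 after quantile normalization, and both readings lie within the negative controls. For each gene this is the same quantity computed the other way round.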

How the results depend on the processing

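The median chaperone difference for overload under vehicle, -0.62 as deposited, was -0.15 with arrays centred on all genes, -0.97 centred on adipocyte genes and -0.30 after quantile normalization. Overload under GW4869, 2.40 as deposited, gave 2.29, 2.64 and 2.38 in that order. GW4869 in sham, 0.42, gave 0.78, -0.081 and 0.58, and GW4869 in overloaded, 2.67, gave 2.45, 2.76 and 2.64. The difference between the overload differences, 2.91, gave 2.33, 3.50 and 2.97. For GW-Sham against Veh-SA, 0.65, alternatives chosen after seeing the data gave 0.53, 0.49 and 0.59. The cause of these shifts is the scaling itself, which adds 1 constant per array or, for quantiles, per rank. With readings raised to the negative control percentile, also chosen after seeing the data, the 6 medians in this order were 0.18, 1.22, 0.17, 1.12, 1.41 and -0.015, so those of overload under vehicle and of GW-Sham against Veh-SA turned sign. Averaging probe sets and the treatments at the floor could not change a chaperone, since each has 1 probe set and none lies under the floor. All-gene centring moved the median of all genes by 0.47, -0.10, 0.36 and -0.22 in the 4 comparisons. Of 135 differences of single chaperones recomputed under the 3 scalings, 17 crossed 1.5-fold and 8 took the other sign, none of these past 1.5-fold as deposited. No paired analysis was possible because each group has 1 array. No array could be left out of a group for the same reason.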

Other observations

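The remaining 4 marker lists were read on the same arrays, with values in the order Veh-Sham, Veh-SA, GW-Sham and GW-SA. Macrophage genes (9 of 10 measured) had medians of 10.29, 10.94, 12.46 and 12.33. Of these, 9 of 9 were at least 1.5-fold above vehicle on GW-Sham and 6 of 9 on GW-SA, beside 28.9% and 18.4%. Endothelial genes (8 of 8) had medians of 9.66, 10.29, 10.02 and 9.37. On GW-SA 7 of 8 were at least 1.5-fold lower than on Veh-SA, beside 18.8% of the genes above the floor. Mesothelial genes (7 of 7) had 8.74, 6.98, 8.09 and 9.92, and skeletal muscle genes (10 of 10) 4.50, 3.40, 4.22 and 3.65. The mesothelial median on GW-SA is Krt19, and 5 of the 7 genes of that list were highest on GW-Sham and 2, Krt8 and Krt18, on GW-SA.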
